A study of Mus musculus with 8 samples.

Results

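The heat-shock chaperone genes described here were 10 genes chosen by symbol: Hspa1a, Hspa1b, Hspa8, Hsph1, Hspb1, Hspd1, Hspe1, Hsp90aa1, Dnaja1 and Dnajb1. All 10 were found among the 32285 genes listed in the count matrices. Their unique molecular identifiers (UMIs, tags that mark single captured RNA molecules) were followed through the cell classes of mouse long bone periosteum, the cell layer on the outer surface of bone. The cells came from left femurs and tibias of male C57BL/6J mice, 16 weeks old, that were fed a normal diet (ND) or a high-fat diet (HFD), and they were released with collagenase and dispase in both groups and measured with 3′ droplet single-cell RNA sequencing. The labels list 4 replicates per diet, but the cells of each diet were deposited as 1 pooled matrix whose barcodes are not tied to a replicate or animal. Each diet was therefore 1 library, no test between diets was possible, and every ratio of HFD over ND compares 2 libraries. The diet cannot be told apart from any other difference between the libraries.

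Chaperones bind unfolded or newly made proteins and help them fold or keep them from clumping. Hsp70 proteins hold exposed stretches of a client in cycles of ATP binding and release, Hsp40 proteins (with a J domain) deliver clients and start the cycle, and Hsp110 proteins end it by exchanging the nucleotide. Hsp90 takes over many signaling proteins and receptors, small heat-shock proteins hold clients without ATP, and Hsp60 with its lid Hsp10 forms a folding chamber in mitochondria. Under heat, oxidative stress or other damage to proteins, the factor Hsf1 binds heat-shock elements, runs of inverted GAA units in promoters, and raises transcription of many of these genes within minutes. Some of these genes are also known to be induced while a tissue is digested into single cells.

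The promoter sequences are shown because the inducible genes are known to share heat-shock elements. RefSeq windows (build GRCm38.p6) were found for 8 of the 10 genes; Hspa8 and Hsp90aa1 were not matched. A 3-unit element was searched on both strands as GAA, 2 free bases, TTC, 2 free bases and GAA, and 2-unit elements as GAANNTTC or TTCNNGAA, which read the same on both strands and also lie inside every 3-unit match. Over the 250 bases before each start, the 3-unit element was present in 0.466% of 32851 windows of all genes and the 2-unit element in 12.8%. Counted by gene, since a gene can have several windows, the shares were 0.514% and 14.5% of 27025 genes. Of the 8 genes, 2 held the 3-unit element (Hspd1 and Hspe1) and 7 a 2-unit element, the exception being Dnajb1. A match is a description of letters and not of binding. The 250 bases before the start of Hspa1a, on the minus strand at chr17:34972157-34972406, hold a 2-unit match (capitals) that begins 104 bases before the start.
Hspa1a: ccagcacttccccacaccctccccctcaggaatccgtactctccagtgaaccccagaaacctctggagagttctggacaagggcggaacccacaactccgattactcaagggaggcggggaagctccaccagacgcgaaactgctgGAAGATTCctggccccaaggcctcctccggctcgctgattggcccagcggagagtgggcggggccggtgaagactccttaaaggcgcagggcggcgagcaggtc
The same stretch of Hspb1, on the plus strand at chr5:135887669-135887918, holds 2 such matches (capitals), which begin 117 and 97 bases before the start.
Hspb1: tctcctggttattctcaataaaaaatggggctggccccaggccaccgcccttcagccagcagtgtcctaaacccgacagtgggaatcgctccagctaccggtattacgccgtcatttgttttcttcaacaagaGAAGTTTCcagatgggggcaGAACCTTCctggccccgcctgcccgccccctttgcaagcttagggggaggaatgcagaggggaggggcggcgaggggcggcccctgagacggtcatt
The window of Hspa1b (minus strand, chr17:34959239-34959488) was identical to that of Hspa1a at 247 of 250 bases and held the same match at the same distance. For the other genes the 30 bases around the match are given, with the match in capitals. The sites of Hsph1, Dnaja1, Hspd1 and Hspe1 overlap annotated exons, and those of Hspa1a, Hspa1b and Hspb1 do not. The sites lie at chr17:34959324-34959353 (minus strand, Hspa1b), chr5:149636351-149636380 (minus strand, Hsph1), chr4:40722333-40722362 (plus strand, Dnaja1), chr1:55088055-55088084 (minus strand, Hspd1) and chr1:55088051-55088080 (plus strand, Hspe1).
Hspa1b: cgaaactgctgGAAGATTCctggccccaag
Hsph1: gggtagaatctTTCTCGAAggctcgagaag
Dnaja1: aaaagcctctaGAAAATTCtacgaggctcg
Hspd1: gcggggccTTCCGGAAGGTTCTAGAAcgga
Hspe1: acggtccgTTCTAGAACCTTCCGGAAggcc
Hspd1 and Hspe1 are transcribed away from each other, and both sites are the same stretch of DNA read from opposite strands, with overlapping 3-unit matches.

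Counted in the genome (GRCm38, GENCODE), Hspa1a (chr17:34969190-34972156) and Hspa1b (chr17:34956436-34959238) are neighbors on the minus strand and encode inducible Hsp70. The other genes lie elsewhere, Hspa8 at chr9:40800984-40810087, Hsph1 at chr5:149614287-149636376, Hspb1 at chr5:135887919-135889563, Hspd1 at chr1:55077835-55088243, Hspe1 at chr1:55088132-55091307, Hsp90aa1 at chr12:110690605-110702728, Dnaja1 at chr4:40722150-40737149 and Dnajb1 at chr8:83608193-83612653. The transcripts of Hspa1a and Hspa1b share many sequences: 49.3% of all stretches of 90 bases in Hspa1a occur in Hspa1b. Within the last 500 bases, where 3′ libraries read, no such stretch was shared. The deposited counts do not show how reads from the shared part were treated, so the values of each gene are uncertain to that extent.

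Of 6314 (ND) and 6636 (HFD) barcodes, 6029 and 6224 were kept, with over 500 but under 8000 genes detected and less than 20% of UMIs from mitochondrial genes. They held 48106513 and 49411888 UMIs. Median depth (4610 and 4823.5 UMIs per cell) and median mitochondrial share (1.04% and 1.05%) were close. The libraries shared 14 kept barcodes. Clusters built without the genes described here were named from marker genes: the kept cells comprised mesenchymal-like (412 ND, 674 HFD), pericyte/smooth muscle-like (31, 59), neutrophil-like (2400, 2422), macrophage/monocyte-like (528, 533), dendritic-like (44, 59), T cell-like (285, 204), NK-like (131, 108), B cell-like (1523, 1481), basophil/mast-like (47, 52), erythroid-like (34, 26) and hematopoietic progenitor-like cells (239, 195). One cluster (122, 232) carried all 6 endothelial markers but was led by Fabp4, which is also an adipocyte gene; it is called the endothelial-marker cluster. Its other adipocyte markers Adipoq, Plin1, Cidec, Lep and Cfd had between 0 and 2 UMIs. A shallow cluster (200, 159) and a cluster of mostly doublets (33, 20) stayed unnamed.

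Over all kept cells every one of the 10 genes was lower in the HFD library, where 44.5% of all 15994 genes with at least 20 UMIs were lower by any amount. The level of a gene is its number of UMIs among 1000000 UMIs of the cells summed (UPM), and brackets hold exact 95% intervals that cover counting error only. Hspa1a was at 898.5 UPM in ND and 312 in HFD, a log2 ratio of -1.53 [-1.55, -1.50]. Hspa1b was at 828 and 306 UPM, with a log2 ratio of -1.44 [-1.46, -1.41]. Both inducible Hsp70 genes were thus more than 2-fold lower in HFD. Dnajb1, the Hsp40 partner of inducible Hsp70, was at 320 and 145 UPM (log2 ratio -1.15 [-1.19, -1.11]). Hsph1, an Hsp110 nucleotide exchange factor, was at 93.5 and 46.5 UPM (log2 ratio -1.01 [-1.08, -0.94]). Hsp90aa1, the inducible cytosolic Hsp90, was at 1050 and 520 UPM (log2 ratio -1.01 [-1.03, -0.99]). Hspa8 and Dnaja1, which are known for steady expression in unstressed cells, differed less between the libraries than the genes above. Hspa8, the constitutive Hsp70, was at 2004 and 1387 UPM (log2 ratio -0.53), and Dnaja1, an Hsp40 that works with it, at 817 and 617 (log2 ratio -0.41 [-0.43, -0.38]). The mitochondrial pair Hspd1 (Hsp60) and Hspe1 (Hsp10) stood at 232 and 164 UPM and at 470 and 283 UPM (log2 ratios -0.50 and -0.73). The small heat-shock protein gene Hspb1 was at 248 and 158 UPM (log2 ratio -0.65). In total, 7 of 10 genes were lower past 1.5-fold, as were 4.38% of all genes, and the median log2 ratio of the 10 was -0.87 beside 0.03 over all genes.

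The mix of cells differed between the libraries, so the same comparison was made with the same set of class weights in both. The median log2 ratio of the 10 genes was then -0.92. Hspb1 was the gene that depended on the mix most: its log2 ratio was -0.65 over all kept cells and -1.09 with the same class weights. The endothelial-marker cluster, in which Hspb1 is highest, made up 2.02% of kept cells in ND and 3.73% in HFD.

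**Figure D1:**
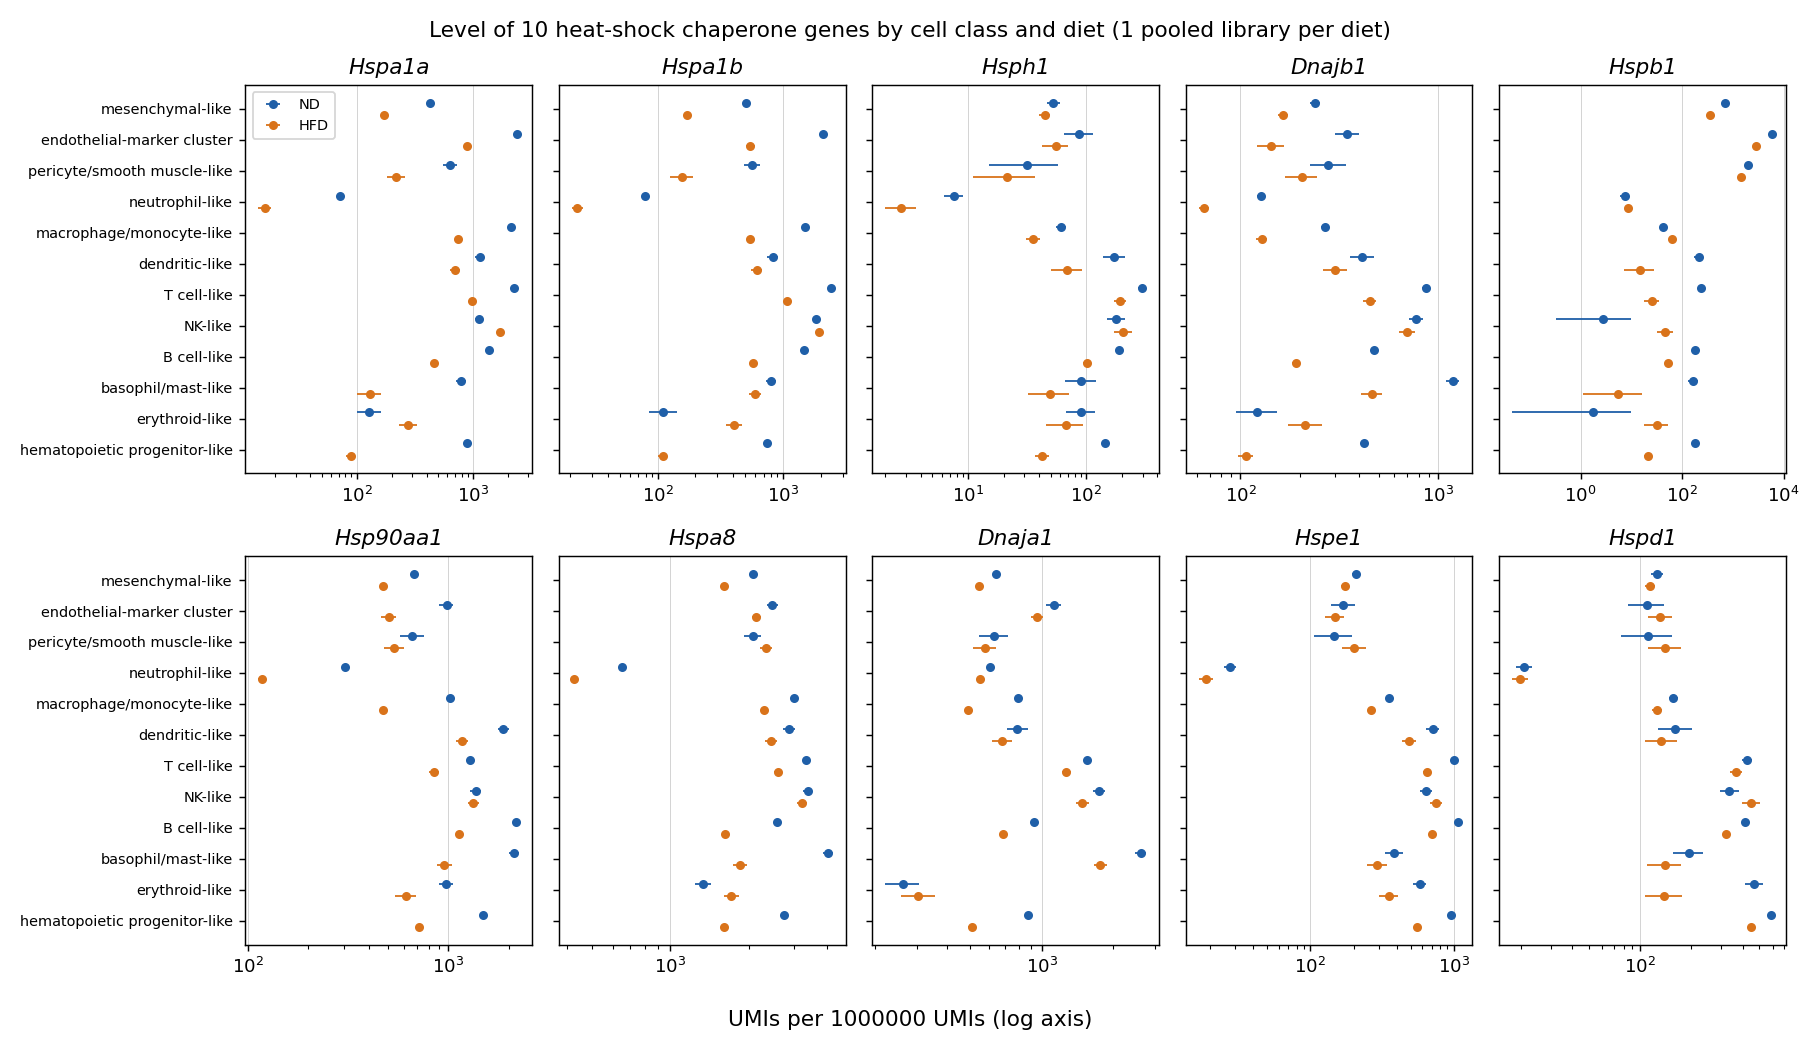
Level of each of the 10 genes (x axis, UMIs per 1000000 UMIs, log axis) in 12 cell classes (y axis) in the ND (blue) and HFD (orange) library; points are sums over all cells of a class and lines are exact 95% counting intervals. Hspa1a ran from 72.3 UPM in ND neutrophil-like cells to 2383 in the ND endothelial-marker cluster. Its HFD points lie left of its ND points in all classes but NK-like and erythroid-like cells, and the exceptions differ for the other genes.

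The level of the inducible Hsp70 genes differed strongly between classes within a library. In ND, Hspa1a was highest in the endothelial-marker cluster (2383 UPM) and T cell-like cells (2261), whose intervals overlapped, followed by macrophage/monocyte-like (2116), B cell-like (1388), dendritic-like (1146) and NK-like cells (1126). Hematopoietic progenitor-like (893), basophil/mast-like (791), pericyte/smooth muscle-like (637) and mesenchymal-like cells (431) came next, and erythroid-like (128.5) and neutrophil-like cells (72.3) were lowest. Intervals of neighbors also overlapped for dendritic-like and NK-like cells, and for basophil/mast-like cells with both progenitor-like and pericyte/smooth muscle-like cells. Overlap of intervals does not show that the levels are equal. In HFD the order changed: NK-like cells led with 1707 UPM, ahead of T cell-like cells (982) and the endothelial-marker cluster (888.5), whose intervals overlapped, while progenitor-like cells were next to last at 89.0. The NK-like level rested on a minority of cells: 14 of 131 ND cells held 72.2% of the Hspa1a UMIs and 11 of 108 HFD cells held 72.3%. Hspa1b had its lowest level in neutrophil-like cells in both libraries (79.8 and 22.9 UPM) and its highest in T cell-like cells in ND (2421) and in NK-like cells in HFD (1926).

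Hspa8 varied far less between classes, from 654 UPM in neutrophil-like to 4030 in basophil/mast-like cells in ND, a 6.16-fold span against 33.0-fold for Hspa1a. Hsp90aa1 was highest in B cell-like cells in ND (2182 UPM, an interval that overlapped that of basophil/mast-like cells) and in NK-like cells in HFD (1336, overlapping dendritic-like cells at 1173). Dnaja1 was highest in basophil/mast-like cells in both libraries (2602 and 1764 UPM), and Dnajb1 in basophil/mast-like cells in ND (1186) and NK-like cells in HFD (696). In ND 1 basophil/mast-like cell held 164 of the 616 Dnajb1 UMIs, and 5 of 47 cells held 55.5%. The mitochondrial gene Hspd1 was highest in hematopoietic progenitor-like cells in both libraries (583 and 449 UPM, in HFD overlapping NK-like cells at 448), and Hspe1 in B cell-like cells in ND (1070). Neutrophil-like cells were lowest for Hspd1 (20.8 and 19.8 UPM) and Hspe1 (27.7 and 18.6) in both libraries. Hsph1 reached 296 UPM in ND T cell-like cells and 7.54 in neutrophil-like cells, the lowest class.

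Hspb1 had a pattern of its own, with the highest levels in vascular cells. It was at 5920 UPM in the ND endothelial-marker cluster and 2806 in HFD, at 1964 and 1463 in pericyte/smooth muscle-like cells, and at 689 and 357 in mesenchymal-like cells. These 3 classes kept this order in both libraries, with intervals that did not overlap. All other classes were at 236 UPM or below in ND. Several leukocyte values rested on few cells: dendritic-like cells were at 212.5 and 15.0 UPM, with 76 of 102 ND UMIs in 1 cell, and progenitor-like cells at 177.5 and 21.5 UPM, with 99 of 110 HFD UMIs in 1 cell. T cell-like cells were at 236 and 25.2 UPM, with UMIs in 42 ND and 12 HFD cells. After each cell was thinned to 1000 UMIs, 81.4% of ND and 78.1% of HFD cells of the endothelial-marker cluster had an Hspb1 UMI, against 1.13% and 0.99% of neutrophil-like cells, whose median depths (4125 and 4302 UMIs) were close to those of the cluster (4387 and 4040).

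**Figure D2:**
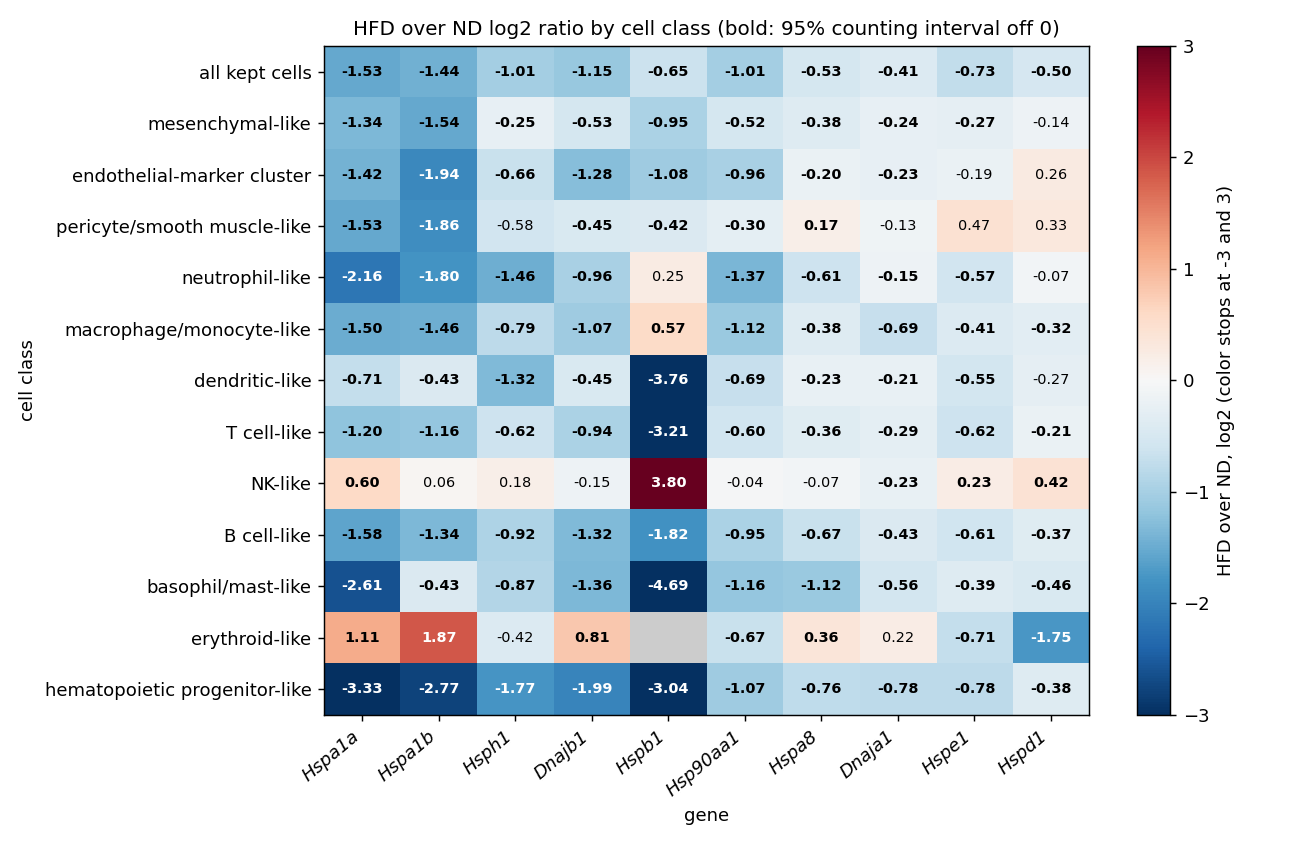
HFD over ND log2 ratio of each gene (columns) over all kept cells and in 12 classes (rows), blue where lower and red where higher in HFD, with the value printed and in bold where the 95% counting interval lies off 0; gray marks a gene with under 20 UMIs. Hspa1a runs from -3.33 in hematopoietic progenitor-like cells to 1.11 in erythroid-like cells, and the rows of NK-like and erythroid-like cells hold most of the red fields.

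Across classes, the lower level in HFD was widespread but uneven. Hsp90aa1 was lower in HFD in all 12 classes, with an interval below 0 in 11. Hspa1a and Hspa1b were lower in 10 of 12 classes each, all 10 with intervals below 0, and Dnajb1 and Hsph1 in 11 of 12 each. Hspd1 was lower in 9 of 12 classes, with an interval below 0 in 6. By the median of the genes, the difference was largest in hematopoietic progenitor-like cells (-1.42), where Hspa1a was at 893 UPM in ND and 89.0 in HFD (log2 ratio -3.33 [-3.47, -3.19]), Hspa1b at 750 and 110 (-2.77), Dnajb1 at 420.5 and 106 (-1.99) and Hsph1 at 144 and 42.1 (-1.77). In these cells 9 of 10 genes were lower past 1.5-fold, where 6.27% of all genes were, and the exception was Hspd1 (log2 ratio -0.38). B cell-like cells had 8 of 10 genes lower past 1.5-fold (6.33% of all genes), with Hspa1a at 1388 and 465 UPM and Hsp90aa1 at 2182 and 1126. T cell-like cells had 7 of 10 (8.32% of all genes), among them Hspa1a at 2261 and 982 UPM. Their count was 4 of 10 when thinned to 1000 UMIs, a setting for which no share of all genes is given. Macrophage/monocyte-like cells had 6 of 10 (6.23% of all genes), with Hspa1a at 2116 and 750 UPM, while Hspb1 was low and higher in HFD (42.95 and 63.6). Neutrophil-like cells had 6 of 10 (8.64% of all genes), among them Hspa1a at 72.3 and 16.1 UPM and Hspa8 at 654 and 428. Basophil/mast-like cells had 6 of 10 (10.7% of all genes) and dendritic-like cells 4 of 10 (9.54% of all genes). These counts lean on few cells: in ND 5 of 47 basophil/mast-like cells held 83.7% of the Hspa1a UMIs, and 1 of 44 dendritic-like cells held 76 of 102 Hspb1 UMIs.

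In the endothelial-marker cluster 6 of 10 genes were lower in HFD past 1.5-fold, as were 9.99% of all genes. Hspa1b was at 2104 UPM in ND and 548.5 in HFD (log2 ratio -1.94 [-2.08, -1.80]), and Hspb1 was 2.11-fold lower (log2 ratio -1.08 [-1.15, -1.01]). The mitochondrial pair did not follow: Hspd1 was at 109 and 131 UPM and Hspe1 at 169 and 148, and both intervals of the ratio included 0. In the 31 and 59 pericyte/smooth muscle-like cells, 2 of 10 genes were lower past 1.5-fold (12.3% of all genes), the inducible Hsp70 genes Hspa1a (637 and 220 UPM) and Hspa1b (567 and 156). In ND 1 cell held 67 of the 201 Hspa1a UMIs and 1 held 61 of the 179 Hspa1b UMIs, and 4 cells held 67.2% and 87.2% of them. Hspa8 was slightly higher in HFD (2072 and 2327 UPM).

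Mesenchymal-like cells, the class that holds the bone-forming lineage, had all 10 genes lower in HFD by any amount, as were 42.8% of all 12656 genes. Only 3 of them were lower past 1.5-fold, where 5.94% of all genes were. Hspa1b was at 503 UPM [483, 523] in ND and 172.5 [163, 182] in HFD, 2.91-fold lower. Hspa1a was at 431 UPM [413, 450] and 171 [161, 181], 2.53-fold lower, and Hspb1 at 689 [666, 712] and 357 [343, 371], 1.93-fold lower. None of these intervals overlapped between libraries. Dnajb1 (238 and 165 UPM) and Hsp90aa1 (678 and 474) were 1.45-fold and 1.43-fold lower. The rest differed by less: Hspa8 by 1.30-fold, Hspe1 by 1.20-fold, Hsph1 by 1.19-fold, Dnaja1 by 1.18-fold and Hspd1 by 1.11-fold, and the interval of Hspd1 included 0. The summed level of the 10 genes was 5655 UPM in ND and 3817 in HFD. A median log2 ratio of -0.45 was found for them, beside 0.05 over all genes of the class.

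The mesenchymal-like cells were split further, and 3 of 6 subclusters could be named from markers. In osteoblast-like cells (56 ND, 128 HFD), 5 of 10 genes were lower past 1.5-fold (10.5% of all genes). Hspa1a was at 579 UPM in ND and 157 in HFD, Hspa1b at 539 and 112, Dnajb1 at 312 and 65.9 and Hsph1 at 48.6 and 18.1. In ND 1 osteoblast-like cell held 77 of the 286 Hspa1a UMIs and 1 held 96 of the 266 Hspa1b UMIs, and 6 cells held 69.6% and 72.9% of them. In fibroblast progenitor-like cells (192, 267), 3 of 10 genes were lower past 1.5-fold (6.26% of all genes): Hspa1a (493 and 198 UPM), Hspa1b (608 and 188) and Hspb1 (909 and 501). In tenocyte-like cells (95, 161), 2 of 10 were (7.71% of all genes), Hspb1 at 822 and 357 UPM and Hspa1b at 250 and 163.5. Dnajb1 differed most among the subclusters, with a log2 ratio of -2.24 [-2.67, -1.83] in osteoblast-like cells and 0.07 [-0.17, 0.31] in tenocyte-like cells. The 14 immediate-early genes (such as Fos and Jun) were also all lower in osteoblast-like cells (50.3% of all genes), 10 of them past 1.5-fold (10.5%), with a median log2 ratio of -0.68. All 14 were lower as well in fibroblast progenitor-like cells (42.8% of all genes), 1 past 1.5-fold (6.26%), with a median of -0.24. The same held in tenocyte-like cells (46.5%), with 3 past 1.5-fold (7.71%) and a median of -0.38. The part of the immediate-early genes in the chaperone values was not tested. Hspb1 was low in osteoblast-like cells in both libraries (60.8 and 74.0 UPM), far from its level in the fibroblast progenitor-like and tenocyte-like cells.

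In NK-like and erythroid-like cells the median of the genes lay above 0, at 0.12 and 0.22. These signs depended on the processing: with cells thinned to 1000 UMIs the medians were -0.21 and -1.37 (the latter over 2 genes), and the erythroid-like median was also below 0 with cells above 200 genes (-1.21) and as a mean over cells (-0.46). In NK-like cells (131 ND, 108 HFD) 0 of 10 genes were lower past 1.5-fold (7.98% of all genes) and 2 were higher (10.6% of all genes). Hspa1a was at 1126 UPM in ND and 1707 in HFD (log2 ratio 0.60 [0.47, 0.73]), whereas Hspa1b (1845 and 1926 UPM), Hspa8 (3382 and 3211) and Hsp90aa1 (1370 and 1336) had intervals that included 0. The higher Hspb1 count rested on few cells: 2 UMIs in 2 ND cells and 30 UMIs in 5 HFD cells, of which 1 cell held 80.0%. In the 34 and 26 erythroid-like cells, 3 of the 9 genes with enough UMIs were lower past 1.5-fold (14.9% of all genes) and 3 were higher (9.99% of all genes). The higher genes were Hspa1b (111 and 408 UPM), Hspa1a (128.5 and 278) and Dnajb1 (121.5 and 213), and the lower ones Hspd1 (468 and 138), Hspe1 (577 and 351) and Hsp90aa1 (975 and 612.5). In HFD 1 erythroid-like cell held 101 of the 133 Hspa1a UMIs, 1 held 126 of the 195 Hspa1b UMIs and 1 held 57 of the 102 Dnajb1 UMIs.

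**Figure D3:**
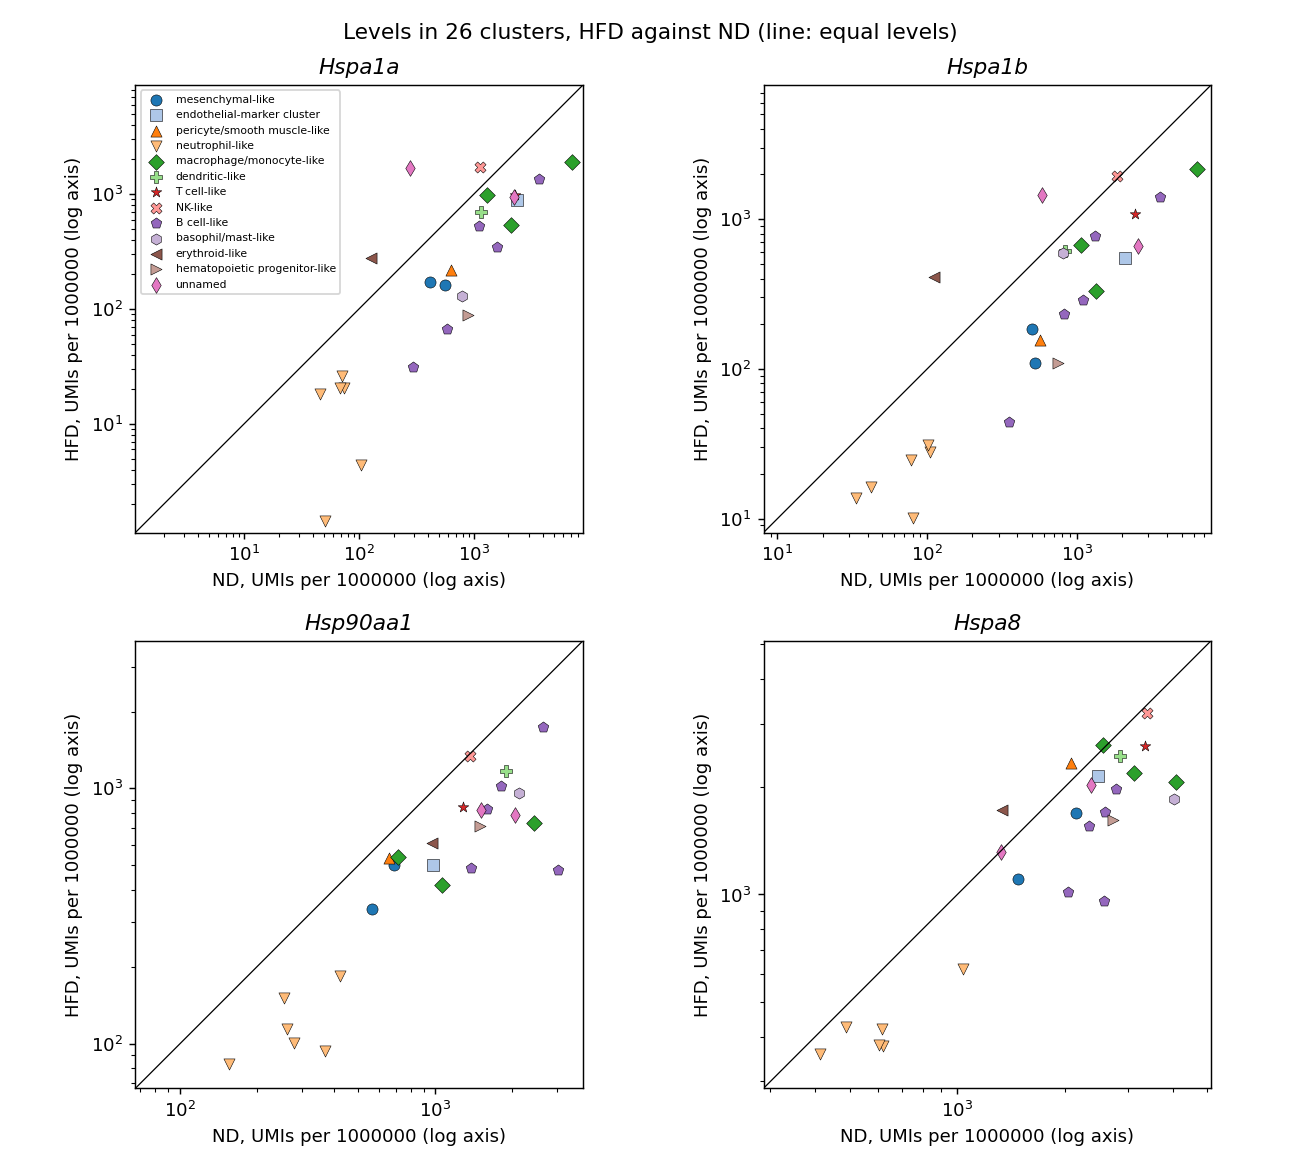
Level of Hspa1a, Hspa1b, Hsp90aa1 and Hspa8 in 26 clusters, ND on the x axis and HFD on the y axis (UMIs per 1000000, log axes), with color and shape for the class and a line at equal levels. Hsp90aa1 lies below the line in all 26 clusters, Hspa1a in 23, and the clusters above the line for Hspa1a are the NK-like, the erythroid-like and an unnamed one.

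The same comparison was made cluster by cluster, since a class can hold several clusters. The median ratio of the genes was below 0 in 23 of 26 clusters and ranged from -1.81 to 0.61. Hsp90aa1 was lower in HFD in 26 of 26 clusters, Dnajb1 in 24, and Hspa1a, Hspa1b, Hspa8, Hspe1 and Dnaja1 in 23 each. Hspb1 was lower in 15 of the 23 clusters with enough UMIs, and Hspd1 in 17 of 26. One of the unnamed clusters, most of whose cells were called doublets, had the highest median. The 3 macrophage/monocyte-like clusters were unlike each other: a cluster led by Apoc2, Apoe and Ace had Hspa1a at 7118 UPM in ND and 1898 in HFD, and a cluster led by C1qa, C1qb and C1qc had it at 1304 and 972. Among B cell-like clusters Hspa1a ran from 293 UPM (ND) and 31.1 (HFD) in a cluster led by Vpreb3 and Igll1 to 3695 and 1352 in one led by H2-Aa, H2-Eb1 and Cd74. In the classes that held several clusters (mesenchymal-like, neutrophil-like, macrophage/monocyte-like and B cell-like cells), the largest cluster was the same in both libraries.

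The lower Hspa1a level in HFD came with fewer cells holding a UMI. After thinning to 1000 UMIs per cell, 20.9% [17.1, 25.1] of ND and 13.3% [10.8, 16.1] of HFD mesenchymal-like cells had an Hspa1a UMI (62.6% and 51.6% before thinning, with median depths of 10687.5 and 9574 UMIs). In B cell-like cells the thinned shares were 21.5% and 9.94%, in T cell-like cells 38.6% and 23.0%, in macrophage/monocyte-like cells 35.5% and 19.5%, and in progenitor-like cells 30.8% and 5.21%. The endothelial-marker cluster had 61.9% and 36.2%. Neutrophil-like cells, the class with least, had 4.05% and 1.57%. Thinning left out 55 ND and 51 HFD cells of all classes. Among thinned cells with a UMI, the mean number of Hspa1a UMIs was also smaller in HFD, at 2.07 and 1.49 in mesenchymal-like, 7.56 and 6.05 in B cell-like and 6.81 and 4.75 in macrophage/monocyte-like cells. Hspa8, by contrast, was found in 74.0% of ND and 70.9% of HFD mesenchymal-like cells after thinning.

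**Figure D4:**
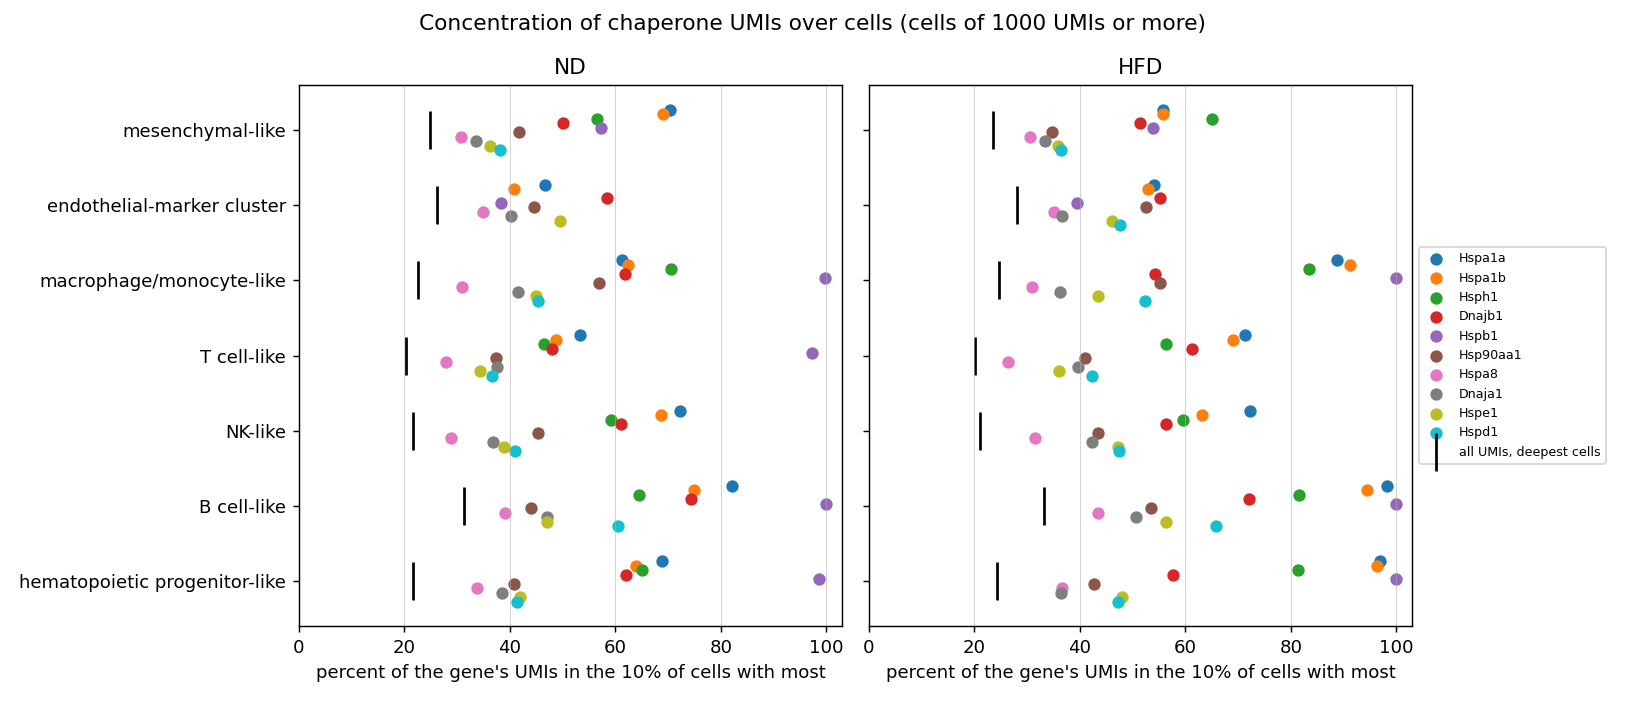
Percent of the UMIs of each gene held by the 10% of cells with most of them (x axis) in 7 classes (y axis) of the ND and HFD libraries, among cells with 1000 UMIs or more and genes with at least 100 UMIs; the black bar gives the percent of all UMIs held by the deepest 10% of cells. Hspa8 lies nearest to the bar in each class shown except HFD hematopoietic progenitor-like cells, where Dnaja1 does, and Hspa1a of HFD B cell-like cells reaches 98.2%.

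The inducible genes were concentrated in few cells. In B cell-like cells the 10% of cells with most Hspa1a held 82.1% of its UMIs in ND and 98.2% in HFD, while the deepest 10% of cells held 31.4% and 33.3% of all UMIs. Hspa1a had 10652 UMIs in the ND and 3535 in the HFD B cell-like cells. Such a share depends on the number of UMIs, so its difference between libraries is not separate from that of the level. In macrophage/monocyte-like cells the shares were 61.4% and 88.7%, in T cell-like cells 53.2% and 71.3%, and in progenitor-like cells 68.9% and 96.9%. Mesenchymal-like cells went the other way, with 70.3% in ND and 55.7% in HFD. For Hspa8 the shares were 30.7% and 30.6% in mesenchymal-like cells and 39.2% and 43.5% in B cell-like cells, close to those of all UMIs. Hspb1 outside the vascular and mesenchymal-like cells sat in very few cells: in B cell-like cells 137 of 1523 ND and 84 of 1481 HFD cells had a UMI, and 1 of the ND basophil/mast-like cells held 84 of 85 Hspb1 UMIs. The 10 genes together took a median of 0.46% of the UMIs of a mesenchymal-like cell in ND and 0.34% in HFD, and the 90th percentile was 1.08% and 0.72%. In B cell-like cells the medians were 0.51% and 0.23%, the 90th percentiles 2.92% and 1.68%, and the single highest cell reached 10.6% in ND and 10.3% in HFD.

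How closely the inducible genes went together over cells differed between classes. Over single cells of 1 library and class, which share library and ambient RNA, Pearson r of Hspa1a and Hspa1b (log2 scale of UMIs per 10000, 1 added) was 0.90 in ND and 0.93 in HFD T cell-like cells (285 and 204 cells) and 0.76 and 0.73 in B cell-like cells (1518 and 1479 cells). It was 0.58 and 0.39 in mesenchymal-like cells (412 and 670 cells) and lowest in neutrophil-like cells, at 0.22 and 0.19 (2395 and 2418 cells), among the classes computed. Few neutrophil-like cells had an Hspa1a UMI. With Dnajb1, Hspa1a had r of 0.75 and 0.74 in T cell-like cells, 0.20 and 0.12 in mesenchymal-like cells and 0.13 and 0.02 in neutrophil-like cells. With the immediate-early gene Fos, r was 0.646 and 0.583 in macrophage/monocyte-like and 0.625 and 0.636 in NK-like cells, the highest among the classes computed. It was 0.512 and 0.468 in the endothelial-marker cluster, 0.47 and 0.44 in T cell-like, 0.25 and 0.22 in mesenchymal-like and 0.10 and 0.08 in neutrophil-like cells. The mitochondrial partners Hspd1 and Hspe1 had r of 0.74 in ND and 0.51 in HFD progenitor-like cells, and 0.53 and 0.51 in B cell-like cells. Their r was low in mesenchymal-like cells (0.19 and 0.145), the endothelial-marker cluster (0.11 and 0.03) and neutrophil-like cells (0.08 and 0.05). Hspa1a and Hspb1, both inducible, had r of 0.48 in the ND endothelial-marker cluster and 0.12 in ND mesenchymal-like cells.

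**Figure D5:**
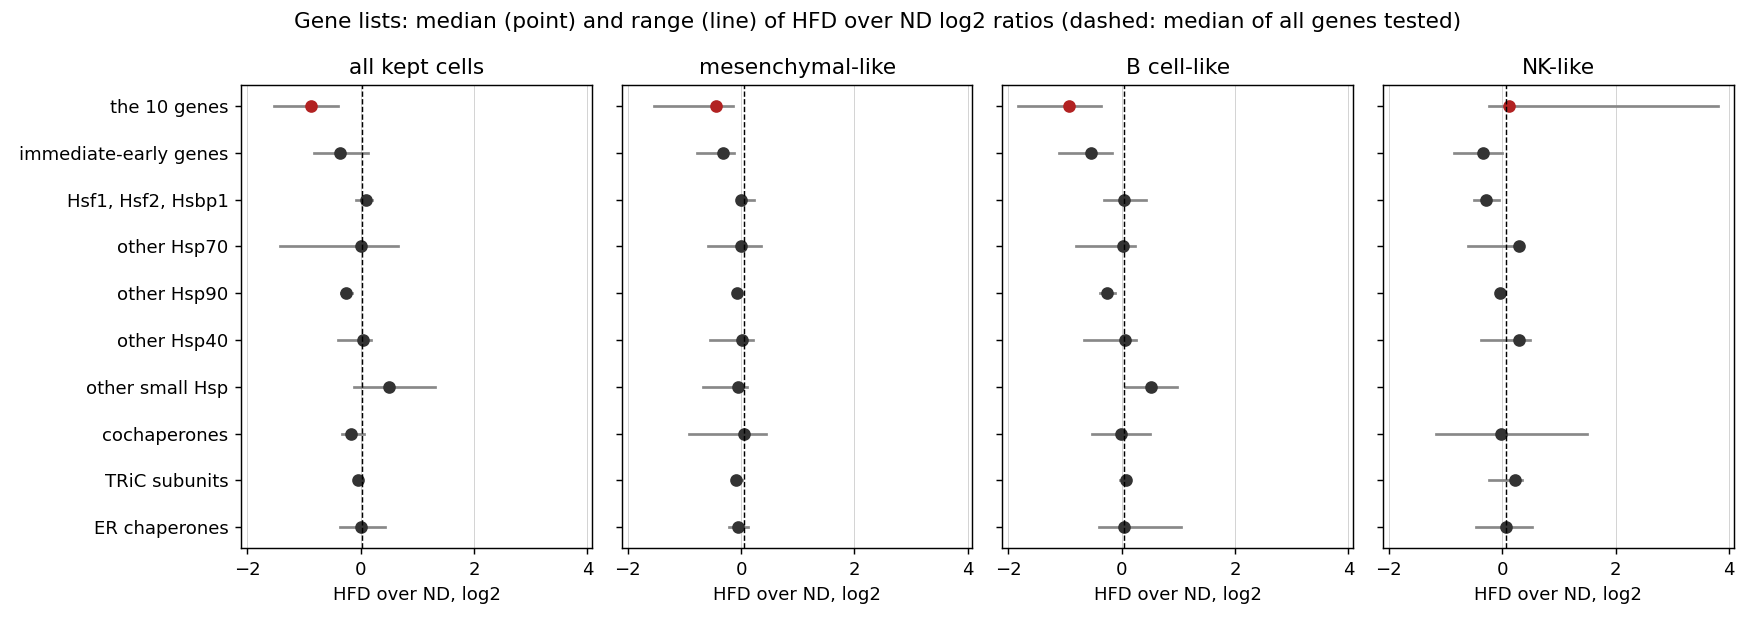
HFD over ND log2 ratio (x axis) of the 10 genes and of 9 other gene lists (y axis) over all kept cells and in 3 classes; points are medians, gray lines run from the lowest to the highest gene the dashed line is the median of all genes tested, and no other small heat-shock protein gene had enough UMIs in NK-like cells. The 10 genes have a median of -0.87 over all kept cells and the immediate-early genes -0.36, while 8 lists of other chaperones lie between -0.25 and 0.50.

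The other chaperone genes together were close to even between the libraries by their median, but single genes and classes differed more. Of the 70 other chaperone and regulator genes listed, 41 were lower in HFD by any amount over all kept cells, beside 44.5% of all genes. Over all kept cells, 1 of 70 other chaperone and regulator genes was lower past 1.5-fold (Hspa1l, with 27 and 10 UMIs; 4.38% of all genes were) and 3 were higher (Hspb7, Hspb2 and Hspa12a; 11.1% of all genes were), and their median log2 ratio was -0.03. The heat-shock factor genes Hsf1 (12.0 and 11.4 UPM) and Hsf2 (8.75 and 10.1) and the factor-binding gene Hsbp1 (106 and 113) had a median of 0.10. The 8 subunits of the cytosolic chaperonin TRiC had a median of -0.05 and the 12 chaperones of the endoplasmic reticulum 0.01. Among genes with at least 200 UMIs, the lowest ratios were those of Hspa4l, an Hsp110 relative (log2 ratio -0.46), Dnajb4, an Hsp40 (-0.40), and Hspa5, the Hsp70 of the endoplasmic reticulum (778 and 608 UPM, -0.35). The highest were those of the small heat-shock protein gene Hspb2 (1.17) and the Hsp70 relatives Hspa12a (0.67) and Hspa12b (0.50), all from levels under 5 UPM. In mesenchymal-like cells 3 of 68 other genes were lower past 1.5-fold (Fkbp5, Hspb8 and Hspa12b, where 5.94% of all genes were) and 0 higher (8.05% of all genes), with a median of -0.02. The lowest there were Fkbp5, a cochaperone of steroid receptors (24.5 and 13.0 UPM, log2 ratio -0.91 [-1.32, -0.51]), the small heat-shock protein gene Hspb8 (137 and 85.9, -0.68 [-0.84, -0.52]) and Dnajb4 (121 and 82.8, -0.55). The highest were the cochaperone genes Cacybp (72.6 and 99.0 UPM, 0.45) and Ahsa2 (0.39), and Hspa13 (0.34). In progenitor-like cells 5 of 62 other genes were lower past 1.5-fold (6.27% of all genes) and 2 higher (4.36% of all genes). Their median was -0.01, the lowest was the cochaperone gene Bag3 (log2 ratio -1.92) and the highest Hspb6 (0.65).

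Immediate-early genes, which are switched on within minutes of many stimuli and are known to respond to tissue dissociation, were also mostly lower in HFD. Over all kept cells 13 of 14 were lower in HFD (44.5% of all genes), 2 of them past 1.5-fold (Jun and Zfp36; 4.38% of all genes), with a median log2 ratio of -0.36, and their summed level was 11020 UPM in ND and 8281 in HFD. Jun was at 1556 and 878 UPM and Fos at 1441 and 1225. In mesenchymal-like cells 14 of 14 were lower (42.8% of all genes), 1 past 1.5-fold (Atf3, 1158 and 672 UPM), a share close to that of all genes (5.94%), with a median of -0.32, and their sum was 24790 UPM in ND and 19530 in HFD. More of them were lower past 1.5-fold in several classes: 10 of 14 in neutrophil-like (8.64% of all genes) and in progenitor-like cells (6.27%). The endothelial-marker cluster had 9 (9.99%), macrophage/monocyte-like and B cell-like cells 7 each (6.23% and 6.33%), but pericyte/smooth muscle-like cells 2 (12.3%). In this order the medians were -0.77, -0.90, -0.63, -0.66, -0.54 and -0.38. Those of the 10 chaperone genes were -0.785, -1.42, -0.81, -0.74, -0.94 and -0.36. No values with the same class weights are given for the immediate-early genes. In NK-like cells 4 of the 10 chaperone genes were lower in HFD by any amount, beside 43.3% of all genes. Of the 14 immediate-early genes 13 were lower there, with a median of -0.34. In erythroid-like cells 5 of 13 immediate-early genes were lower (53.9% of all genes), with a median of 0.195. Their part in the ratios of the chaperone genes was not tested.

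The genes whose level over the 24 sums of class and library was most like that of Hspa1a, Hspa1b, Dnajb1 and Hsph1 summed were Hspa8 (Pearson r 0.89), Bbc3 (0.85), Zfp511 (0.81), Tpt1 (0.81) and Hsp90aa1 (0.79), among 11877 genes with at least 200 UMIs. Of the other members, Hspe1 ranked 161 (r 0.66), Dnaja1 214 (0.65), Hspd1 744 (0.55) and Hspb1 3644 (0.32). The 24 sums share 2 libraries, and the correlation is given as a description.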

How the data were processed

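For each diet the authors deposited a single matrix of UMI counts (Cell Ranger 6.0.1 and build mm10, per the labels and the submitters' processing notes), without normalization. The study's own cell filter was used: over 500 but under 8000 genes detected, and less than 20% of UMIs from mitochondrial genes. The libraries of 48558889 (ND) and 49940976 (HFD) UMIs were merged and clustered with Seurat 5.3.0 (sctransform 0.4.2, R 4.3.3): S and G2M scores regressed, 30 principal components, resolution 0.5, and 0.2 for subclusters of mesenchymal-like cells. The 10 genes and all genes of the other lists were left out of the variable genes. A cluster was named by the marker list highest over the median of clusters, and stayed unnamed if fewer than 3 markers were detected, if its top 10 genes held more markers of a different class, or if it was shallow or mostly doublets. The clusters had been seen when these limits were set. Scrublet (scanpy 1.11.5) called 1.58% of ND and 0.064% of HFD cells; its automatic threshold did not work in HFD, and doublets were kept.

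UMIs were summed per class and library, since cells were not tied to animals and are not replicates. Levels are per 1000000 UMIs with exact Poisson 95% intervals. Ratios had 0.5 added to each count and an exact conditional interval, and were made for genes with at least 20 UMIs in the class over both libraries. Shares of cells have Clopper-Pearson intervals. Intervals cover counting error only. No p was computed. Ratios and intervals were tested on simulated counts, which were drawn as independent Poisson counts. That setting cannot show how the intervals hold where the UMIs of a gene sit in few cells, as in these data. Named genes were the 10 members, the 3 highest and 3 lowest other chaperone genes with at least 200 UMIs (over all kept cells and in mesenchymal-like cells) and the 5 genes most like the inducible members; leading genes of clusters, single list genes and the ends of lists were named after their values were seen. The members and lists were chosen with earlier results of these data known. Sums and figures were made with matplotlib 3.10.9, pandas 2.3.3, scipy 1.17.1 and numpy 2.4.6 in Python 3.11.15.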

Additional observations from a re-analysis of the deposited data

Results flagged for a closer look

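The log2 ratios of 10 pairs of gene and class went against the direction that the same gene had in most classes: their counting interval lay above 0 in the class named and below 0 in at least 6 others. These differences between classes were not tested. The list holds 8 pairs from NK-like or erythroid-like cells, classes whose median turned below 0 when cells were thinned (-0.21, and -1.37 over 2 genes). In NK-like cells they were Hspa1a (log2 ratio 0.60 [0.47, 0.73]), Hspb1 (3.80 [2.12, 7.21]), Hspd1 (0.42 [0.17, 0.68]) and Hspe1 (0.23 [0.05, 0.42]). In erythroid-like cells they were Hspa1a (1.11 [0.69, 1.55]), Hspa1b (1.87 [1.46, 2.31]), Hspa8 (0.36 [0.22, 0.51]) and Dnajb1 (0.81 [0.36, 1.27]). The other two were Hspa8 in pericyte/smooth muscle-like cells (0.17 [0.03, 0.31]) and Hspb1 in macrophage/monocyte-like cells (0.57 [0.35, 0.79]). In HFD, 1 cell held 75.9% of the Hspa1a UMIs of erythroid-like cells, 80.0% of the Hspb1 UMIs of NK-like cells and 48.8% of the Hspb1 UMIs of macrophage/monocyte-like cells.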

How the results depend on the processing

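No paired analysis was possible because the matrix columns carry no replicate number, and no replicate could be left out with 1 library per diet. The median log2 ratio of the 10 genes over all kept cells was -0.81 with cells thinned to 1000 UMIs, -0.90 centred on all genes, -0.80 as a mean over cells and -0.92 with the same class weights. In mesenchymal-like cells the thinned median was -0.54. It was -0.48 thinned and -0.70 as a mean over cells in neutrophil-like cells, and -0.91 in T cell-like cells with the listed genes kept for clustering. In progenitor-like cells it was -1.23 without the top 5% of doublet scores, an alternative chosen after seeing the data, -1.72 with cells above 200 genes and -1.60 as a mean over cells. The sign turned in NK-like cells when thinned (-0.21), and in erythroid-like cells when thinned (-1.37, over 2 genes), with cells above 200 genes (-1.21) and as a mean over cells (-0.46). The cause was not tested. T cell-like cells had 4 genes lower past 1.5-fold when thinned and 3 past 2-fold, and B cell-like cells 4 past 2-fold. No share of all genes is given for these settings, so these counts cannot be set against it. The summed level in mesenchymal-like cells was 5538 UPM in ND with cells above 200 genes, 5746 without mitochondrial UMIs and 5809 as a mean over cells, and in HFD 3906 thinned, 3880 without mitochondrial UMIs and 3951 as a mean over cells. The Hspa1a share of mesenchymal-like cells was 20.9% and 13.3% thinned. Small classes, such as pericyte/smooth muscle-like and erythroid-like cells, had the fewest UMIs and the widest intervals.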
